A study of Mus musculus with 2 samples.

Results

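Genes of cholesterol and fatty acid synthesis were followed across the cell types of inflamed mouse back skin. The 36 genes were chosen by symbol and all 36 symbols were found once among the 31053 genes of the count table. They comprise 15 enzymes of cholesterol synthesis, 13 enzymes that build, elongate or desaturate fatty acids, 3 regulators of both routes, and 5 enzymes that activate fatty acids or join them into wax esters and triglycerides. The rule for choosing them names genes and uses no measured value.

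The samples were 2 single-cell RNA libraries of dorsal skin, 1 from wild-type mice (WT) and 1 from Chrna5 knockout mice (KO, Chrna5-/-, lacking a nicotinic acetylcholine receptor subunit), both from imiquimod-treated female mice. The strain label is C57BL/6, the growth text names C57BL/6N and the extraction text C57BL/6J. Imiquimod is a Toll-like receptor agonist whose cream causes a psoriasis-like inflammation. Mice aged 6 to 8 weeks received 62.5 mg of 5% cream on the shaved back for 6 days, and skin was taken on day 7. The labels name no Cre or promoter for the deletion, and say that knockout mice were backcrossed. Groups of 5 mice are mentioned, without a statement on how many mice went into a library. Fat was scraped off before collagenase digestion, and live cells were sorted with a dye that stains dead ones. A cream-base control is mentioned in the labels and is not analysed here. With 1 library per genotype there is no replicate, so no test between genotypes is given. Ratios are KO over WT, with exact 95% intervals covering counting error only, and every difference below is a difference between these 2 libraries.

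Cholesterol is made from acetyl-CoA through mevalonate, isoprenoid diphosphates and squalene, and then a series of sterol steps. Fatty acids share the acetyl-CoA source but are built by acetyl-CoA carboxylase and fatty acid synthase, then lengthened by ELOVL elongases and desaturated by SCD and FADS enzymes. SREBP transcription factors (Srebf1, Srebf2) drive both routes, and Insig1 holds them back when sterols are ample. In skin, sebaceous gland cells use these routes for sebum, and differentiating keratinocytes use them for the cholesterol and very long chain lipids of the barrier.

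The stretches of DNA just upstream of annotated starts of these genes differed between the branches in a motif that the choice of genes did not use. RefSeq upstream windows of 250 bases (GRCm38.p6) were matched for 12 of the 15 cholesterol genes and 9 of the 13 fatty acid genes. Unmatched were Fdps, Fdft1, Sqle, Scd1, Scd2, Elovl3 and Fads1. A gene with several windows, such as Dhcr7 or Pmvk, counted as having a motif if any of its windows did. The only Acaca window, chr11:84195188-84195437, lies inside the span of that gene, chr11:84129672-84401651, so it may not be its main promoter. The CCAAT box (letters CCAAT, searched on both strands), bound by NF-Y, was found upstream of 12 of 12 matched cholesterol genes and 3 of 9 matched fatty acid genes (Fasn, Elovl1 and Elovl5), against 37.5% of all 27025 genes in the table. The letters TCACNCCAC of a classic sterol regulatory element were found only at Hmgcs1 among the 21 matched genes of the 2 branches, against 1.23% of all genes. The E-box CACGTG was found at 3 cholesterol genes and 1 fatty acid gene, against 6.86% of all genes. A match is a description of letters, not a bound site. Printed here are Hmgcs1, which has both the sterol letters and CCAAT boxes and whose level was not lower in KO keratinocytes, Mvd and Nsdhl, the cholesterol genes with the lowest ratios there, Fasn as a fatty acid gene with CCAAT boxes, and Elovl7 as one without a match. Each runs from 250 bases before the start to the base before it, in the gene's direction, with matches in capitals (ATTGG is CCAAT on the other strand).
Hmgcs1, chr13:119690101-119690350, plus strand: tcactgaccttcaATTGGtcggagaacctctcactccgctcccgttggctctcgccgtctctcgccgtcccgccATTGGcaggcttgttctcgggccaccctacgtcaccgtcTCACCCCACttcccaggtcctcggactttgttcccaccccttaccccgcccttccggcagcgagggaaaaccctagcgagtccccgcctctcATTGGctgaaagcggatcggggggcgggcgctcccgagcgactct
Mvd, chr8:122443423-122443672, minus strand: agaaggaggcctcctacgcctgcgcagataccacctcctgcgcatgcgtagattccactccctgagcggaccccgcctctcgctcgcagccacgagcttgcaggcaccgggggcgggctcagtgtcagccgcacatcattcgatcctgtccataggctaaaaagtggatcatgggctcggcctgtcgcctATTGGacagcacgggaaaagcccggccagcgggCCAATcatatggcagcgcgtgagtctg
Nsdhl, chrX:72918271-72918520, plus strand: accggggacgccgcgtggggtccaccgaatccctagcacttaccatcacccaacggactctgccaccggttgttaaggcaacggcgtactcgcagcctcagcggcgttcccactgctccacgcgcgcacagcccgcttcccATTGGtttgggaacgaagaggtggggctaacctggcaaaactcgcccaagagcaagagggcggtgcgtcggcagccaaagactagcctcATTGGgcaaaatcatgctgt
Fasn, chr11:120824548-120824797, minus strand: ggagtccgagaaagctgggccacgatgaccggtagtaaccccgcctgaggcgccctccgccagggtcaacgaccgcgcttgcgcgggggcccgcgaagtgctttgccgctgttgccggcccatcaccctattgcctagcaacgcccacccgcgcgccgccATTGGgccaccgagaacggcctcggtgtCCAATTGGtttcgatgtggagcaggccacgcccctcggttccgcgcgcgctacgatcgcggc
Elovl7, chr13:108214154-108214403, plus strand: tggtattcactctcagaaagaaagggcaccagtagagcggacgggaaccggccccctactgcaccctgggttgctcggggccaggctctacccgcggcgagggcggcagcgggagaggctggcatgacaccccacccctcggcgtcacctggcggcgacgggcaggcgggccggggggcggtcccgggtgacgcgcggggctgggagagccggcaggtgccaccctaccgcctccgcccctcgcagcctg
The sterol letters of Hmgcs1 begin 137 bases before its start as TCACCCCAC, and its 3 CCAAT boxes begin with one at 237 bases before it.

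The WT library held 14557 barcodes and the KO library 10886, of which 13938 and 10233 were kept, with median depths of 4603 and 6374 UMIs (unique molecular identifiers, each counting 1 captured RNA molecule). The libraries shared 49 barcodes. Chrna5 itself had 12 UMIs in WT and 6 in KO, too few to check the labels, and a read outside the deleted part would not do so. Cells were placed in classes by the share of fixed marker genes they expressed, none of them among the 36 genes, and 33.4% of WT and 34.2% of KO cells stayed without a class. Keratinocytes other than sebaceous cells numbered 5671 in WT and 2462 in KO, sebaceous gland cells 260 and 290, fibroblasts 1922 and 2221, and monocytes and macrophages 911 and 765. The median depth of keratinocytes was 5049 UMIs in WT and 19514.5 in KO, and several clusters of shallow cells were nearly all from WT. The classes were set by these marker lists, so the levels of the lists do not test the class names. The keratinocyte list had a median over cells of 21683 CPM (WT) and 20820 CPM (KO) in keratinocytes, against 1195 and 610 CPM in fibroblasts. A class of 46 WT and 82 KO cells gated as outer hair follicle was led by Cldn3 and Krt75, markers of another follicle layer, and is not described by that name.

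Both branches were highest in sebaceous gland cells among the classes with many cells, and suprabasal keratinocytes came next. Levels are given as UMIs per 1000000 UMIs of the class (CPM), not scaled to transcript length, so they are compared between classes for the same gene or sum and not between genes. The 15 cholesterol genes summed to 3089 CPM (WT) and 4541 CPM (KO) in sebaceous gland cells, to 1624 CPM (WT) and 1303 CPM (KO) in suprabasal keratinocytes and to 420.0 CPM (WT) and 347 CPM (KO) in basal keratinocytes. The 13 fatty acid genes summed to 5086 CPM (WT) and 10223 CPM (KO) in sebaceous gland cells, 977 CPM (WT) and 875 CPM (KO) in suprabasal and 274 CPM (WT) and 263 CPM (KO) in basal keratinocytes. Suprabasal cells therefore held more of both than basal cells did, in each library. Fibroblasts were at 207 CPM (WT) and 232 CPM (KO) for cholesterol and 258 CPM (WT) and 357 CPM (KO) for fatty acid genes. The fatty acid sum was also high in the few adipocytes, at 7525 CPM (WT) and 3515 CPM (KO) from 11 and 21 cells, and in Schwann cells, at 1363 CPM (WT) and 993 CPM (KO) from 24 and 89 cells. Langerhans cells had a cholesterol sum of 1045 CPM (WT) and 516 CPM (KO) from 35 and 53 cells.

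**Figure D1:**
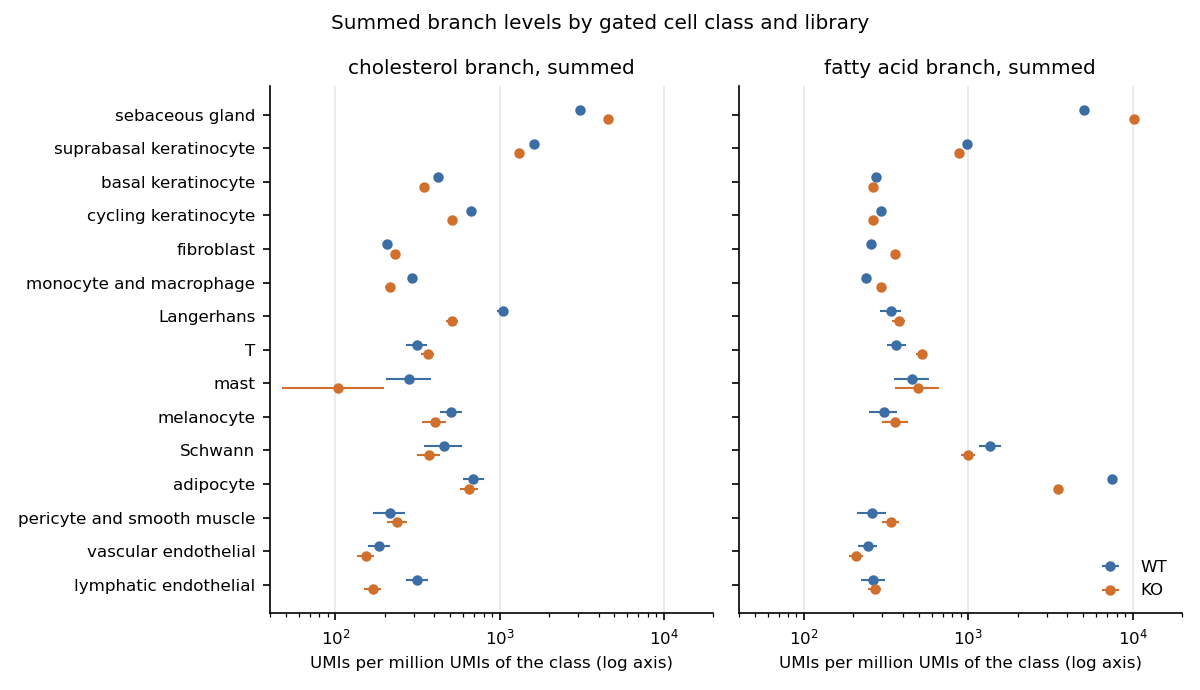
Summed level of the 15 cholesterol genes (left) and the 13 fatty acid genes (right) in each gated cell class, in UMIs per 1000000 UMIs of the class on a log axis, for the WT (blue) and KO (orange) library; bars are exact 95% Poisson intervals of counting error. Sebaceous gland cells stand at 3089 (WT) and 4541 (KO) for cholesterol. For fatty acid genes adipocytes lie above them in WT and next below them in KO.

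Early steps of the cholesterol route mostly followed this order, with Mvk and, in WT, Pmvk as exceptions. Hmgcs1, which makes HMG-CoA, was at 287 CPM (WT) and 380.2 CPM (KO) in sebaceous cells and 201 CPM (WT) and 199 CPM (KO) in suprabasal keratinocytes. Mevalonate kinase (Mvk) went the other way, with 81.3 CPM (WT) and 62.2 CPM (KO) in suprabasal keratinocytes and 46.95 CPM (WT) and 44.3 CPM (KO) in sebaceous cells. Phosphomevalonate kinase (Pmvk) was highest in Langerhans cells in WT at 468 CPM, next in sebaceous cells at 307 CPM, and in KO highest in sebaceous cells at 457 CPM, ahead of adipocytes at 330.0 CPM. The order of Pmvk classes thus differed between the libraries. Mvd, the decarboxylase that ends the mevalonate segment, was at 56.5 CPM (WT) and 79.9 CPM (KO) in sebaceous and 52.9 CPM (WT) and 27.6 CPM (KO) in suprabasal cells, whose counting intervals overlapped in WT. The isomerase Idi1 (chr13:8885501-8892451) stood far above its next class, with 897 CPM (WT) and 1392 CPM (KO) in sebaceous and 222 CPM (WT) and 152 CPM (KO) in suprabasal cells. Fdps, which makes farnesyl diphosphate, was at 389 CPM (WT) and 513 CPM (KO) and at 251 CPM (WT) and 193 CPM (KO) in those classes.

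The squalene and sterol steps were also highest in sebaceous cells for most genes, with Sc5d and Dhcr7 outside that order. Squalene synthase (Fdft1) was at 82.97 CPM (WT) and 96.95 CPM (KO) in sebaceous and 74.3 CPM (WT) and 78.8 CPM (KO) in suprabasal cells, with overlapping intervals in WT. Squalene epoxidase (Sqle) was highest in WT in melanocytes at 94.02 CPM and Langerhans cells at 74.5 CPM, and in KO in sebaceous cells at 102 CPM and melanocytes at 54.9 CPM. Lanosterol synthase (Lss) was at 55.5 CPM (WT) and 67.1 CPM (KO) in sebaceous and 22.4 CPM (WT) and 15.2 CPM (KO) in suprabasal cells. For the lanosterol demethylase Cyp51 the values were 388 CPM (WT) and 658 CPM (KO) in sebaceous and 171 CPM (WT) and 153 CPM (KO) in suprabasal cells. Msmo1, Nsdhl and Hsd17b7 remove further methyl groups from the sterol. Sebaceous cells held Msmo1 at 351 CPM (WT) and 552 CPM (KO) and suprabasal cells at 174 CPM (WT) and 136 CPM (KO). Nsdhl (chrX:72918557-72958514) was at 45.9 CPM (WT) and 69.7 CPM (KO) in sebaceous cells, with adipocytes next in WT at 15.3 CPM and suprabasal cells next in KO at 9.63 CPM. Hsd17b7 was at 87.7 CPM (WT) and 115 CPM (KO) in sebaceous and 56.4 CPM (WT) and 47.2 CPM (KO) in suprabasal cells. Sc5d and Dhcr7 act at the end of the route and were not highest in sebaceous cells. Sc5d was at 6.42 CPM (WT) and 2.11 CPM (KO) there and at 50.5 CPM (WT) and 33.3 CPM (KO) in suprabasal cells, with Langerhans cells next in WT at 25.99 CPM and adipocytes first in KO at 46.8 CPM. Dhcr7 was at 32.9 CPM (WT) and 45.5 CPM (KO) in suprabasal and 16.2 CPM (WT) and 11.2 CPM (KO) in sebaceous cells. Over the cholesterol branch, sebaceous cells were the highest class for 10 of 15 genes in WT and 12 of 15 in KO.

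The regulators had different highest classes. Among classes with at least 200000 UMIs, Srebf1 was highest in adipocytes at 34.5 CPM (WT) and 57.2 CPM (KO). Sebaceous cells were next in WT at 30.1 CPM and Langerhans cells next in KO at 36.8 CPM, with overlapping intervals in each library. WT Schwann cells, under that limit, held Srebf1 at 106 CPM (56.5 to 181) from 13 UMIs. Srebf2 was highest in suprabasal cells at 113 CPM (WT) and 105 CPM (KO), with intervals that overlapped those of the next classes, melanocytes in WT at 85.2 CPM and the unnamed follicle class in KO at 95.4 CPM. Insig1 was highest in melanocytes in WT at 64.6 CPM, next in sebaceous cells at 48.1 CPM, and in KO highest in sebaceous cells at 123 CPM, ahead of adipocytes at 67.6 CPM.

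The fatty acid enzymes were highest in several classes, from sebaceous cells and adipocytes to suprabasal keratinocytes and T cells. ATP citrate lyase (Acly), which supplies acetyl-CoA, was highest in sebaceous cells at 119 CPM (WT) and 184 CPM (KO), with the unnamed follicle class next in WT at 60.3 CPM and adipocytes next in KO at 85.7 CPM. Acaca, the carboxylase, was highest in adipocytes at 61.3 CPM (WT) and 104 CPM (KO), then in sebaceous cells at 26.5 CPM (WT) and 27.98 CPM (KO). Fasn was likewise highest in adipocytes at 364 CPM (WT) and 278 CPM (KO), then in sebaceous cells at 136 CPM (WT) and 210.4 CPM (KO). The stearoyl-CoA desaturases Scd1 (chr19:44394455-44407879) and Scd2 (chr19:44293674-44306864) are neighbouring paralogues of similar sequence, and how shared reads were counted is not stated. Scd1 was at 2619 CPM (WT) and 4510.1 CPM (KO) in sebaceous cells and 6985 CPM (WT) and 2988 CPM (KO) in adipocytes. Scd2 was highest in suprabasal cells in WT at 62.5 CPM, then vascular endothelial cells at 42.4 CPM, and in KO in Schwann cells at 165 CPM, then lymphatic endothelial cells at 26.1 CPM. The ranks above and below cover classes with at least 200000 UMIs in a library, which left out WT Schwann cells and mast cells of both libraries. In WT mast cells Acly was at 125 CPM (75.1 to 195), above its sebaceous level, with overlapping intervals. Scd2 was at 139 CPM (80.8 to 222) in WT Schwann cells, above its suprabasal level. In KO mast cells Scd2 was at 80.6 CPM (32.4 to 166), above its lymphatic endothelial level.

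The elongases sorted into sebaceous, suprabasal and T cell members. Elovl3, Elovl4 and Elovl6 were sebaceous. Elovl3 was at 358 CPM (WT) and 797 CPM (KO) in sebaceous cells, with T cells next at 15.8 CPM (WT) and 19.9 CPM (KO). Elovl6 (chr3:129532355-129638495), which extends palmitate, was at 596 CPM (WT) and 1917 CPM (KO) in sebaceous cells and next at 39.5 CPM (WT) and 106 CPM (KO) in T cells. Elovl4, which makes the ultra-long acyl chains of barrier ceramides, was at 1071 CPM (WT) and 2330.1 CPM (KO) in sebaceous and 390.4 CPM (WT) and 371 CPM (KO) in suprabasal cells. Elovl1 and Elovl7 were suprabasal. Elovl1 was at 163 CPM (WT) and 106 CPM (KO) in suprabasal cells, with keratinocytes outside the named subclasses next in WT at 73.6 CPM and monocytes and macrophages next in KO at 57.5 CPM. Elovl7 was at 146 CPM (WT) and 179 CPM (KO) in suprabasal cells, with the same keratinocytes next in WT at 75.7 CPM and sebaceous cells next in KO at 123 CPM. Elovl5, an elongase of polyunsaturated chains, was highest in T cells at 90.1 CPM (WT) and 96.2 CPM (KO), with Langerhans cells next in WT at 43.3 CPM and sebaceous cells next in KO at 82.3 CPM. The polyunsaturated desaturases were scarce. Fads1 was highest in melanocytes in WT at 14.7 CPM, with pericytes and smooth muscle next at 13.2 CPM, and in Schwann cells in KO at 62.4 CPM, with Langerhans cells next at 17.1 CPM. WT Schwann cells, left out of these ranks, held Fads1 at 89.8 CPM (44.8 to 161) from 11 UMIs. Fads2 was under 5 CPM in each of those, at 2.94 and 2.64 CPM in melanocytes and pericytes in WT and 4.797 and 4.49 CPM in Schwann and Langerhans cells in KO.

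Wax ester genes were highest in sebaceous cells, while activation and triglyceride genes were not. The wax synthase Awat2 was at 24.8 CPM (WT) and 30.3 CPM (KO) in sebaceous cells, with other keratinocytes next in WT at 1.44 CPM and T cells next in KO at 2.39 CPM. Far2, which reduces fatty acyl-CoA to the alcohols of waxes, was at 223 CPM (WT) and 356 CPM (KO), followed by T cells in WT at 9.48 CPM and melanocytes in KO at 17.3 CPM. Acsl1, which activates fatty acids, was at 1819 CPM (WT) and 1133 CPM (KO) in adipocytes and 62.00 CPM (WT) and 73.9 CPM (KO) in suprabasal cells. The triglyceride enzyme Dgat1 was at 337 CPM (WT) and 389.7 CPM (KO) in T cells and 306 CPM (WT) and 195 CPM (KO) in adipocytes, and Dgat2 at 276 CPM (WT) and 135 CPM (KO) in adipocytes and 52.6 CPM (WT) and 57.2 CPM (KO) in suprabasal cells.

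**Figure D2:**
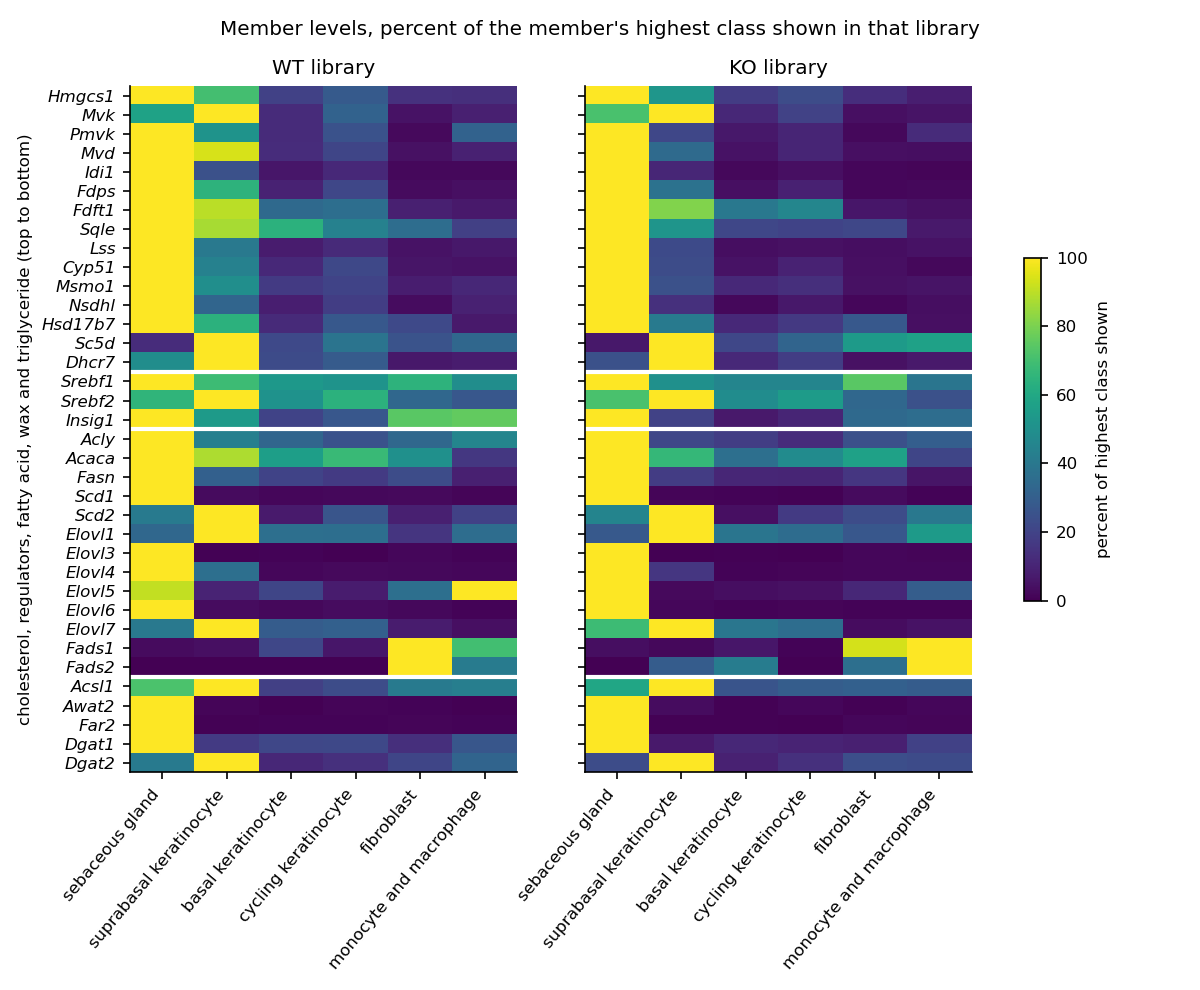
Level of each of the 36 genes (rows) in 6 named classes with at least 200 cells in each library (columns), as a percentage of the gene's highest value among these 6 in the WT (left) and KO (right) library. Most cholesterol genes are brightest in sebaceous gland cells, while Mvk, Dhcr7, Elovl1 and Elovl7 are brightest in suprabasal keratinocytes.

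Across 31 class and library points with at least 200000 UMIs, the summed log2 levels of the 2 branches had a Pearson correlation of 0.74, given as a description because points of 1 library share its preparation and free RNA. Each branch sum includes the gene set against it, so the values of members are in part fixed by construction. This weighs most for genes with a large share of their sum, such as Scd1. Within the cholesterol branch most genes followed their own sum, from 0.67 for Dhcr7 to 0.95 for Cyp51, while Sc5d was at 0.02. Within the fatty acid branch Scd1 was at 0.95 and Fasn at 0.93, while Scd2 was at 0.04, Elovl5 at 0.07, Elovl1 at -0.22, Fads1 at -0.17 and Fads2 at -0.10. Among the other genes most like the cholesterol sum were Tecr at 0.93 and Cs at 0.89, then Tmem147, Aldh3b2, Ldhb, Psmb7, Emc4, Psmb5 and Timm13, down to 0.85. Ldhb is also a sebaceous marker used to set the classes, so its likeness is partly shaped by the gate. Those most like the fatty acid sum were Acadvl at 0.93, Cisd1 and Acaa1a at 0.91, then Pex19, Pxmp4, Cbr1, Adig, Slc25a1, Hacd2 and Sar1b, down to 0.87.

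In keratinocytes the cholesterol branch was lower in the KO library and the fatty acid branch was mixed. The cholesterol sum was 837 CPM (WT) and 721 CPM (KO), a ratio of 0.861 (0.851 to 0.871). The fatty acid sum was 492 CPM (WT) and 495 CPM (KO), a ratio of 1.01 (0.992 to 1.02). The median log2 ratio was -0.35 over 15 cholesterol genes and -0.16 over 12 measured fatty acid genes, against 0.03 over all 15085 genes with at least 20 UMIs. Of the cholesterol genes 12 were below a ratio of 1, and 3 were lower past 1.5-fold, where 14% of all measured genes were lower by that much. None was higher past 1.5-fold, against 14.8% of all genes. These shares put 3 of 15 near the background, so the branch is described by its median and not by its count. The limit of 20 UMIs kept 35 of the 36 genes, with Fads2 at 1 UMI in WT and 2 in KO.

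The 3 cholesterol genes past 1.5-fold sit at different steps. Mvd was at 21.01 CPM (WT) and 12.3 CPM (KO), a ratio of 0.585 (0.537 to 0.638). Idi1 was at 122 CPM (WT) and 81.1 CPM (KO), a ratio of 0.667 (0.644 to 0.6896). Nsdhl was at 8.52 CPM (WT) and 4.95 CPM (KO), a ratio of 0.581 (0.506 to 0.665). Pmvk lay just short of that fold, at 84.5 CPM (WT) and 57.3 CPM (KO), a ratio of 0.678 (0.651 to 0.706). Hmgcs1, Fdft1 and Dhcr7 did not follow. Hmgcs1 was at 103 CPM (WT) and 116 CPM (KO), a ratio of 1.12 (1.09 to 1.16), Fdft1, which commits the route to sterols, at 43.2 CPM (WT) and 56.7 CPM (KO), a ratio of 1.31 (1.25 to 1.37), and Dhcr7 at 14.6 CPM (WT) and 19.9 CPM (KO), a ratio of 1.36 (1.25 to 1.47). The other 8 cholesterol genes had ratios from 0.726 (0.673 to 0.782) for Sc5d to 0.961 (0.929 to 0.994) for Msmo1. The 3 regulators had overlapping intervals, with a ratio of 0.863 (0.794 to 0.938) for Srebf1, 0.956 (0.921 to 0.992) for Srebf2 and 0.974 (0.895 to 1.06) for Insig1.

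Among fatty acid genes in keratinocytes 2 were lower past 1.5-fold and 1 was higher. Scd2 was at 23.8 CPM (WT) and 10.3 CPM (KO), a ratio of 0.432 (0.395 to 0.473). Fads1 was at 1.25 CPM (WT) and 0.517 CPM (KO), a ratio of 0.412 (0.268 to 0.618). Elovl6 was higher, at 17.3 CPM (WT) and 27.8 CPM (KO), a ratio of 1.61 (1.498 to 1.72), and without the 70 gated cells of cluster 38, which were all from KO, its log2 ratio was 0.49, short of 1.5-fold. Elovl7 came close, at 74.6 CPM (WT) and 109 CPM (KO), a ratio of 1.46 (1.42 to 1.52). Of the 5 further genes only Awat2 passed, at 0.5104 CPM (WT) and 0.8499 CPM (KO), a ratio of 1.67 (1.096 to 2.54). For each gene, in the library where the class held more of it, the level was set against that of the other classes with at least 20 cells, leaving out other keratinocyte classes for a keratinocyte class. By this measure Scd2, Fads1, Elovl6 and Awat2 in keratinocytes were under 20% of their level in another class, so RNA shed by that class could supply them, and its part was not tested. The same holds for Pmvk against Langerhans cells, and for Idi1 and Nsdhl against sebaceous cells, whose levels are given above. Without all such genes the cholesterol median was -0.24 over 11 genes, and 1 gene of 18 was past 1.5-fold.

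The 2 libraries held different keratinocytes. Cells of the shallow clusters 4, 7 and 17 made up 16.2%, 9.86% and 8.66% of WT keratinocytes, and 0.0812%, 0.122% and 0% of KO keratinocytes. Cluster 10 held 8.76% of WT and 34.8% of KO keratinocytes, and the suprabasal cluster 12 held 10.9% and 24.0%. Within each of the 8 clusters that had at least 20 gated keratinocytes in each library, the cholesterol median was below 0, from -0.17 to -0.91. Within them the fatty acid median ran from -0.32 to 0.15. In those clusters to which each library gave at least 20% of the cells, a choice made after seeing the data, the cholesterol median was -0.69 and 13 of 35 genes were past 1.5-fold in either direction, against 27.8% of all genes measured in those cells. Beside this, the 8 dissociation and stress genes summed to 4247 CPM (WT) and 10585 CPM (KO) in keratinocytes, cycling markers to 344 and 151 CPM, basal markers to 8096 and 5018 CPM and fibroblast markers to 210 and 95.5 CPM. The part of these in the lower cholesterol values was not tested.

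**Figure D3:**
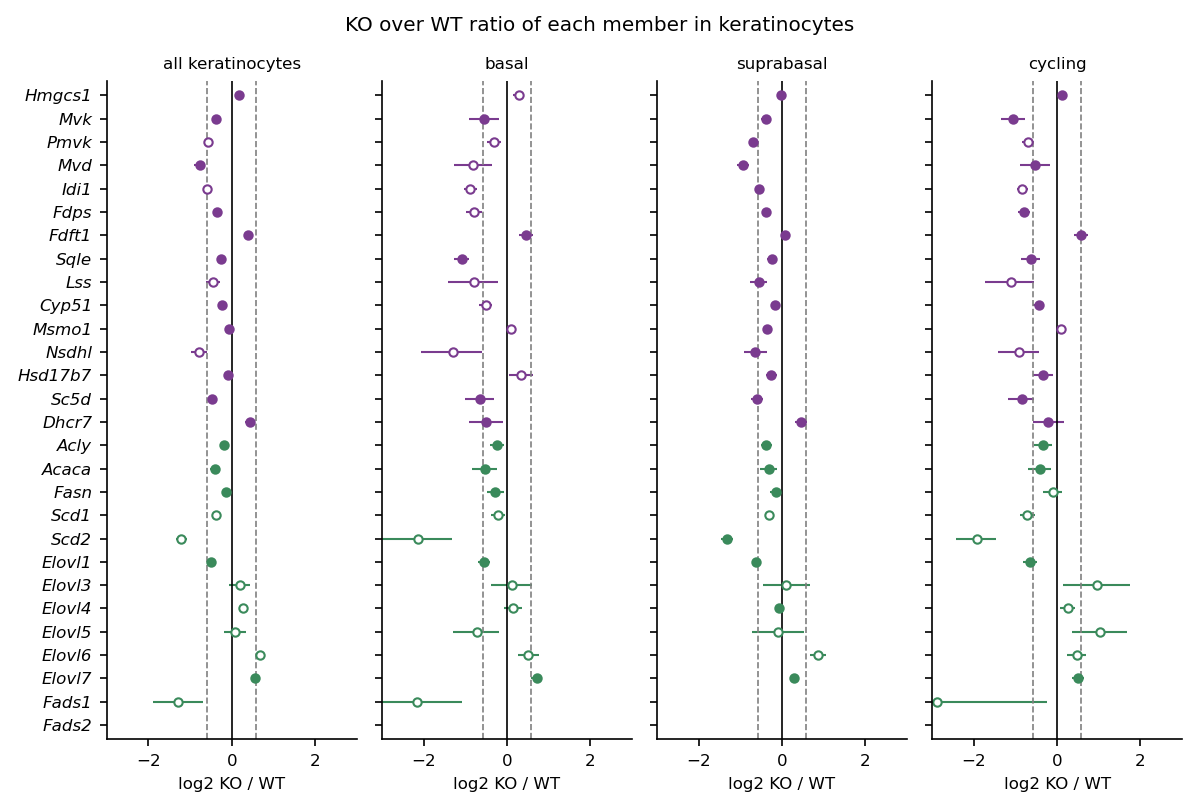
Log2 ratio of KO over WT for the 15 cholesterol genes (purple) and 13 fatty acid genes (green) in all keratinocytes and in the basal, suprabasal and cycling subclasses; bars are exact 95% intervals of counting error, a few of them cut at the left edge, dashed lines mark 1.5-fold, and open points are genes under 20% of their level in a class outside the keratinocytes, in the library where they were higher. Genes with under 20 UMIs have no point, and most purple points lie left of 0 in each panel while Fdft1 lies right of 0 in all 4.

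In basal keratinocytes, 1635 in WT and 652 in KO, 7 of 15 cholesterol genes were lower past 1.5-fold, against 12.7% of all measured genes, and none was higher, against 11.1%. The cholesterol median was -0.55, the fatty acid median -0.25 and that of all genes 0.00. Sqle was at 46.5 CPM (WT) and 21.9 CPM (KO), a ratio of 0.471 (0.412 to 0.536), and Sc5d at 11.1 CPM (WT) and 7.07 CPM (KO), a ratio of 0.636 (0.497 to 0.809). Mvd was at 7.07 CPM (WT) and 4.05 CPM (KO), a ratio of 0.573 (0.413 to 0.784). Idi1 was at 55.6 CPM (WT) and 30.3 CPM (KO), a ratio of 0.546 (0.487 to 0.611), and Fdps at 37.3 CPM (WT) and 21.6 CPM (KO), a ratio of 0.579 (0.505 to 0.662). Lss was at 4.22 CPM (WT) and 2.43 CPM (KO), a ratio of 0.575 (0.374 to 0.865) and Nsdhl at 3.81 CPM (WT) and 1.55 CPM (KO), a ratio of 0.406 (0.239 to 0.661), both from under 100 UMIs per library. Hmgcs1 was at 55.9 CPM (WT) and 68.04 CPM (KO), a ratio of 1.22 (1.12 to 1.33) and Fdft1 at 28.4 CPM (WT) and 38.8 CPM (KO), a ratio of 1.37 (1.22 to 1.54). Of the fatty acid genes Scd2 was lower at 4.55 CPM (WT) and 1.03 CPM (KO), a ratio of 0.227 (0.1196 to 0.399), Elovl5 at 4.87 CPM (WT) and 2.95 CPM (KO), a ratio of 0.605 (0.4098 to 0.878) and Fads1 at 2.62 CPM (WT) and 0.589 CPM (KO), a ratio of 0.225 (0.0927 to 0.474), and Elovl7 was higher at 42.7 CPM (WT) and 70.2 CPM (KO), a ratio of 1.64 (1.498 to 1.799). Acsl1 was higher too, at 11.8 CPM (WT) and 19.1 CPM (KO), a ratio of 1.62 (1.36 to 1.93). By the 20% measure given above, applied in the library where each gene was higher, 9 of the 12 genes past 1.5-fold could be free RNA, and the other 3 were Sqle, Sc5d and Elovl7. Cluster 5 held 36.5% of WT and 8.44% of KO basal cells, and cluster 10 held 11.7% and 63.2%. The cholesterol median was -0.60 within the basal cells of cluster 5, -0.38 in cluster 10 and -0.03 in cluster 22. When basal cells were taken as whole clusters instead, the fatty acid median was 0.48 and the log2 ratios of Sqle and Elovl7 were 0.064 and -0.91.

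Suprabasal keratinocytes, the layer that builds the barrier, had 4 cholesterol genes lower past 1.5-fold, against 12.9% of all genes, and none higher, against 12.5%. Their cholesterol sum was 1624 CPM (WT) and 1303 CPM (KO), a ratio of 0.802 (0.789 to 0.816) over 1171 WT and 692 KO cells. The cholesterol median was -0.38 and the fatty acid median -0.14, against 0.01 over all genes. Pmvk was at 157 CPM (WT) and 97.1 CPM (KO), a ratio of 0.619 (0.585 to 0.655), and Mvd at 52.9 CPM (WT) and 27.6 CPM (KO), a ratio of 0.521 (0.469 to 0.578). Nsdhl was at 14.96 CPM (WT) and 9.63 CPM (KO), a ratio of 0.644 (0.534 to 0.774), and Sc5d at 50.5 CPM (WT) and 33.3 CPM (KO), a ratio of 0.659 (0.596 to 0.727). None of these 4 was under 20% of its level in a class outside the keratinocytes in WT, where they were higher. Hmgcs1 differed little, at 201 CPM (WT) and 199 CPM (KO), a ratio of 0.9900 (0.947 to 1.03), and Dhcr7 was higher without passing the fold, at 32.9 CPM (WT) and 45.5 CPM (KO), a ratio of 1.38 (1.25 to 1.53). Among fatty acid genes Scd2 was at 62.5 CPM (WT) and 25.1 CPM (KO), a ratio of 0.401 (0.361 to 0.445) and Elovl1, which extends saturated very long chains, at 163 CPM (WT) and 106 CPM (KO), a ratio of 0.649 (0.614 to 0.686). Elovl6 was higher, at 18.8 CPM (WT) and 34.3 CPM (KO), a ratio of 1.82 (1.604 to 2.07), and so were the scarce wax genes Awat2, at 0.384 CPM (WT) and 1.03 CPM (KO), a ratio of 2.68 (1.13 to 7.05), and Far2, at 1.25 CPM (WT) and 2.01 CPM (KO), a ratio of 1.61 (0.956 to 2.76), an interval that spans 1. Dgat1 was lower, at 11.2 CPM (WT) and 6.899 CPM (KO), a ratio of 0.618 (0.496 to 0.767). By the 20% measure Elovl6, Awat2, Far2 and Dgat1 could be free RNA here, while Scd2 and Elovl1 were not under that limit. Elovl4, with most of its keratinocyte RNA in this layer, differed little at 390.4 CPM (WT) and 371 CPM (KO), a ratio of 0.949 (0.919 to 0.9798). Within the suprabasal cells of cluster 24, led by Cst6, Cnfn and Klk6, the cholesterol sum was 2233 CPM (WT) and 1350 CPM (KO), and within those of cluster 12 it was 1552 and 1346 CPM. Clusters 4, 6, 7, 17 and 20 held suprabasal cells that were nearly all from WT, and each cell weighted equally gave a median of -0.14.

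Cycling keratinocytes, 568 in WT and 215 in KO, had 8 of 15 cholesterol genes past 1.5-fold, all lower, against 13.2% of all genes lower and 17.7% higher. The cholesterol median was -0.64, the fatty acid median -0.22 and that of all genes 0.08. Mvk was at 25.6 CPM (WT) and 12.3 CPM (KO), a ratio of 0.479 (0.391 to 0.582), Pmvk at 77.6 CPM (WT) and 47.7 CPM (KO), a ratio of 0.614 (0.555 to 0.679), and Idi1 at 105 CPM (WT) and 58.6 CPM (KO), a ratio of 0.561 (0.512 to 0.613). Fdps was at 82.5 CPM (WT) and 47.7 CPM (KO), a ratio of 0.578 (0.522 to 0.639), and Sqle at 31.8 CPM (WT) and 20.4 CPM (KO), a ratio of 0.643 (0.548 to 0.7500). Fdft1, which uses the product of Fdps, was not lower, at 30.02 CPM (WT) and 44.5 CPM (KO), a ratio of 1.48 (1.32 to 1.67). Lss was at 6.63 CPM (WT) and 3.06 CPM (KO), a ratio of 0.462 (0.303 to 0.682), Nsdhl at 8.25 CPM (WT) and 4.39 CPM (KO), a ratio of 0.532 (0.375 to 0.7396) and Sc5d at 19.4 CPM (WT) and 10.7 CPM (KO), a ratio of 0.554 (0.445 to 0.684). In the fatty acid branch Scd1 was at 53.7 CPM (WT) and 32.8 CPM (KO), a ratio of 0.611 (0.5398 to 0.6897), Scd2 at 16.4 CPM (WT) and 4.29 CPM (KO), a ratio of 0.262 (0.186 to 0.359), and Elovl1 at 58.7 CPM (WT) and 37.4 CPM (KO), a ratio of 0.636 (0.567 to 0.713). Of the genes lower past 1.5-fold, Mvk, Fdps, Sqle, Sc5d and Elovl1 were not under 20% of their level in a class outside the keratinocytes in WT, where they were higher. Fads1 had 21 UMIs in WT and 1 in KO, a ratio of 0.135 (0.00326 to 0.839). Elovl3 and Elovl5 were higher from few UMIs, at 1.26 CPM (WT) and 2.45 CPM (KO), a ratio of 1.94 (1.11 to 3.36) and at 1.802 CPM (WT) and 3.68 CPM (KO), a ratio of 2.04 (1.29 to 3.19). Acsl1 was higher at 14.4 CPM (WT) and 21.7 CPM (KO), a ratio of 1.502 (1.27 to 1.78), and Far2 had a lower level, at 1.87 CPM (WT) and 1.23 CPM (KO), a ratio of 0.654 (0.318 to 1.24), an interval that spans 1. The genes higher past 1.5-fold, Elovl3, Elovl5 and Acsl1, were each under 20% of another class in KO and could be free RNA. Cluster 9 held 64.3% of WT and 36.7% of KO cycling cells and cluster 10 held 3.52% and 46.0%, and the cholesterol median within them was -0.95 and -0.91. Leaving out clusters 9, 10 and 11 and every other cluster with under 20% of cells from a library turned the median to 0.29. That value rests on few cells, 54 WT and 18 KO of cluster 12, 17 and 6 of cluster 26, and 1 and 1 of cluster 1. The cycling markers themselves summed to 983 CPM (WT) and 765 CPM (KO) in these cells, and their part was not tested.

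Keratinocytes outside the named subclasses, a remainder of 2251 WT and 821 KO cells, had 9 of 15 cholesterol genes lower past 1.5-fold, against 15.4% of all genes, and none higher, against 14.7%. The cholesterol median was -0.87, the fatty acid median -0.35 and that of all genes 0.03. Their median depth was 2267 UMIs in WT and 13792 in KO. They include any cells gated as inner hair follicle. Their leading genes included Cst6, Defb6 and Krt79, markers of the upper hair follicle. Mvd was at 15.9 CPM (WT) and 4.44 CPM (KO), a ratio of 0.278 (0.209 to 0.366). Nsdhl was at 7.41 CPM (WT) and 2.91 CPM (KO), a ratio of 0.393 (0.271 to 0.558) and Mvk at 26.02 CPM (WT) and 10.7 CPM (KO), a ratio of 0.4103 (0.3401 to 0.493). Idi1, Fdps, Sc5d, Lss, Pmvk and Cyp51 had ratios from 0.506 (0.467 to 0.548) for Idi1 to 0.581 (0.5296 to 0.637) for Cyp51. In the fatty acid branch Scd2 was at 14.8 CPM (WT) and 4.02 CPM (KO), a ratio of 0.271 (0.201 to 0.361), Elovl1 at 73.6 CPM (WT) and 37.9 CPM (KO), a ratio of 0.514 (0.465 to 0.568) and Scd1 at 117 CPM (WT) and 77.2 CPM (KO), a ratio of 0.6602 (0.614 to 0.7099). Elovl6 was higher, at 18.3 CPM (WT) and 32.7 CPM (KO), a ratio of 1.79 (1.55 to 2.06), and its log2 ratio was 0.09 without cluster 38, which gave 63 of the KO cells and none of the WT cells. With each cell weighted equally the cholesterol median was -0.15 and the log2 ratio of Scd1 was 0.38. By the 20% measure Pmvk, Idi1, Lss, Nsdhl, Scd1, Scd2 and Elovl6 could be free RNA here. The remainder drew 26.5% of its WT cells and 0.244% of its KO cells from cluster 4, and 10.9% and 36.4% from cluster 10. Within each of the 6 clusters with at least 20 of these cells in each library the cholesterol median was below 0, from -0.43 to -1.07.

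Of the related genes that are not among the 36, both directions were seen in keratinocytes, in shares not far from those of all genes (14.8% higher and 14% lower). From a list of 17 measured cholesterol genes, 2 were higher and 2 lower past 1.5-fold. Insig2, a partner of Insig1, was at 26.9 CPM (WT) and 49.6 CPM (KO), a ratio of 1.84 (1.74 to 1.94), and Mylip, a ubiquitin ligase induced by sterol-sensing LXR, at 11.9 CPM (WT) and 26.1 CPM (KO), a ratio of 2.203 (2.04 to 2.38). Acat2, which makes acetoacetyl-CoA for the route, was at 19.2 CPM (WT) and 12.2 CPM (KO), a ratio of 0.637 (0.583 to 0.695), and Soat1, which esterifies cholesterol, at 19.8 CPM (WT) and 5.68 CPM (KO), a ratio of 0.287 (0.255 to 0.322). Soat1 is also a sebaceous marker used to set the classes, so its level in the other keratinocytes is partly shaped by that gate. Of 18 measured fatty acid genes, 4 were higher and 3 lower. Fabp5, the epidermal fatty acid binding protein, was at 3073 CPM (WT) and 1085 CPM (KO), a ratio of 0.353 (0.3501 to 0.356). Agpat2 was at 11.4 CPM (WT) and 5.47 CPM (KO), a ratio of 0.482 (0.424 to 0.546) and Fads3 at 1.52 CPM (WT) and 0.833 CPM (KO), a ratio of 0.548 (0.388 to 0.763). Lpin1 was higher, at 3.55 CPM (WT) and 5.43 CPM (KO), a ratio of 1.53 (1.31 to 1.79), and Acacb and Elovl2 were higher from under 2 CPM, with ratios of 1.72 (1.06 to 2.81) and 1.55 (1.09 to 2.198). Scd4 had 0 UMIs in WT and 24 in KO.

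Sebaceous gland cells as gated showed the opposite, higher levels of both branches in the KO library. The cholesterol sum was 3089 CPM (WT) and 4541 CPM (KO), a ratio of 1.47 (1.45 to 1.49), and the fatty acid sum was 5086 CPM (WT) and 10223 CPM (KO), a ratio of 2.01 (1.99 to 2.03). The median log2 ratio was 0.40 over 15 cholesterol and 0.78 over 11 measured fatty acid genes, against -0.02 over all 10916 measured genes. Of the 34 measured genes 15 were higher past 1.5-fold, against 11.6% of all genes, and 4 were lower, against 15.1%. Elovl5 and Elovl6 had the highest ratios. Elovl5 was at 21.2 CPM (WT) and 82.3 CPM (KO), a ratio of 3.89 (3.296 to 4.61). Elovl6 was at 596 CPM (WT) and 1917 CPM (KO), a ratio of 3.21 (3.11 to 3.32). Elovl3, Elovl4 and Elovl7 were about alike in ratio, with Elovl3 at 358 CPM (WT) and 797 CPM (KO), a ratio of 2.23 (2.14 to 2.33), Elovl4 at 1071 CPM (WT) and 2330.1 CPM (KO), a ratio of 2.18 (2.12 to 2.23) and Elovl7 at 58.96 CPM (WT) and 123 CPM (KO), a ratio of 2.08 (1.87 to 2.32). Scd1 was at 2619 CPM (WT) and 4510.1 CPM (KO), a ratio of 1.72 (1.69 to 1.75), Acly at 119 CPM (WT) and 184 CPM (KO), a ratio of 1.55 (1.43 to 1.68) and Fasn at 136 CPM (WT) and 210.4 CPM (KO), a ratio of 1.55 (1.44 to 1.67). Insig1 was at 48.1 CPM (WT) and 123 CPM (KO), a ratio of 2.56 (2.28 to 2.87), while Srebf1 and Srebf2 had ratios of 1.04 (0.869 to 1.24) and 1.02 (0.912 to 1.14). Of the cholesterol genes Idi1 was at 897 CPM (WT) and 1392 CPM (KO), a ratio of 1.55 (1.51 to 1.597), Cyp51 at 388 CPM (WT) and 658 CPM (KO), a ratio of 1.698 (1.63 to 1.77), Msmo1 at 351 CPM (WT) and 552 CPM (KO), a ratio of 1.57 (1.499 to 1.64) and Nsdhl at 45.9 CPM (WT) and 69.7 CPM (KO), a ratio of 1.52 (1.33 to 1.73). Far2 was at 223 CPM (WT) and 356 CPM (KO), a ratio of 1.597 (1.51 to 1.69) and Dgat1 at 66.3 CPM (WT) and 99.6 CPM (KO), a ratio of 1.502 (1.35 to 1.67). Those lower were Sc5d, at 6.42 CPM (WT) and 2.11 CPM (KO), a ratio of 0.328 (0.181 to 0.569), Scd2, at 25.6 CPM (WT) and 11.4 CPM (KO), a ratio of 0.444 (0.346 to 0.567), Elovl1, at 54.4 CPM (WT) and 29.4 CPM (KO), a ratio of 0.5398 (0.461 to 0.631), and Dgat2, at 21.4 CPM (WT) and 13.2 CPM (KO), a ratio of 0.618 (0.484 to 0.787). Sc5d and Scd2 were under 20% of their level in suprabasal and Schwann cells.

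The gated sebaceous class was made of unlike cells, and their mix differed between the libraries. Cluster 25, led by Elovl6, Scd1, Elovl4 and Elovl3 with Fa2h and Mgll, held 31 WT and 74 KO gated cells, 11.9% and 25.5% of the class. These cells carried 72.3% of the class's UMIs of the 28 branch genes in WT and 92.7% in KO. Cluster 11, led by Ifnk, Soat1, Igfbp2 and Fabp5, held 51.5% and 53.4% of the class and carried 23.3% and 6.59% of those UMIs. Both clusters were made without the 36 genes.

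Within neither cluster was the cholesterol median above 0. In cluster 25 its median log2 ratio was -0.04 and its sum was 8373 CPM (WT) and 8851 CPM (KO). The fatty acid median there was 0.21, with a sum of 16965 and 21241 CPM. In cluster 11 the medians were -0.77 for cholesterol and -0.45 for fatty acid genes, and the cholesterol sum was 1650 CPM (WT) and 1069 CPM (KO). Among single genes in cluster 25, Elovl5 was at 77.96 CPM (WT) and 175 CPM (KO), a ratio of 2.24 (1.88 to 2.69), Elovl7 at 103 CPM (WT) and 226 CPM (KO), a ratio of 2.196 (1.88 to 2.57), Elovl6 at 2196 CPM (WT) and 4045 CPM (KO), a ratio of 1.84 (1.78 to 1.91) and Insig1 at 146 CPM (WT) and 246 CPM (KO), a ratio of 1.69 (1.48 to 1.93). These were higher past 1.5-fold, and Scd2 was lower, at 64.7 CPM (WT) and 23.2 CPM (KO), a ratio of 0.358 (0.2702 to 0.473). The share of all genes past that fold was not counted in this cluster, so these genes are given as single values. Idi1 was at 2198 CPM (WT) and 2695 CPM (KO), a ratio of 1.23 (1.18 to 1.27), Scd1 at 8191 CPM (WT) and 9159.5 CPM (KO), a ratio of 1.12 (1.098 to 1.14) and Elovl4 at 4167 CPM (WT) and 5080.3 CPM (KO), a ratio of 1.22 (1.19 to 1.25). In cluster 11 Idi1 had a ratio of 0.588 (0.551 to 0.627), Scd1 of 0.6199 (0.592 to 0.649), Elovl4 of 0.417 (0.3398 to 0.509) and Elovl6 of 1.09 (0.973 to 1.22). A limit of 5% on mitochondrial UMIs left 18 of 31 WT and 20 of 74 KO cells of cluster 25, and turned the class medians to -0.42 for cholesterol and -0.03 for fatty acid genes. In the class, stress genes summed to 1944 CPM (WT) and 4516 CPM (KO), and cycling markers to 278 and 74.6 CPM, and their part was not tested.

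**Figure D4:**
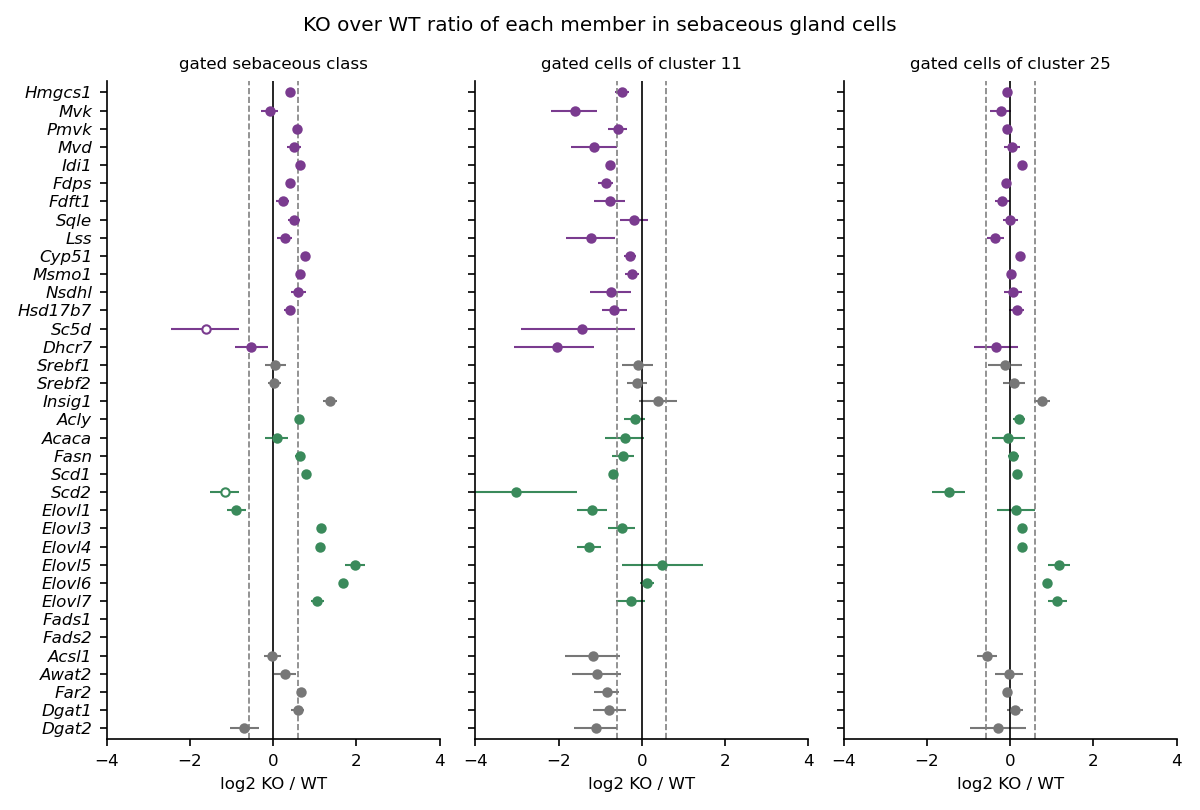
Log2 ratio of KO over WT for the 36 genes in all gated sebaceous cells (left), in those of cluster 11 (middle) and in those of cluster 25 (right); cholesterol genes are purple, fatty acid genes green and the others grey, bars are exact 95% intervals of counting error, one of them cut at the left edge, dashed lines mark 1.5-fold and genes under 20 UMIs have no point. Open points, used in the left panel only, are under 20% of another class in the library where the gene was higher. The left panel leans right of 0, cluster 11 leans left, and in cluster 25 Elovl5, Elovl6, Elovl7 and Insig1 lie right of 1.5-fold.

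In fibroblasts 6 of 34 measured genes were higher past 1.5-fold, against 16.5% of all genes, and 1 was lower, against 8.61%. The higher count is near the background share, so the genes are given as values. All 6 were highest in sebaceous cells in KO, and all but Scd1, which was highest in adipocytes, were so in WT. Scd1 was at 68.6 CPM (WT) and 129 CPM (KO), a ratio of 1.87 (1.74 to 2.02), Elovl3 at 5.88 CPM (WT) and 13.8 CPM (KO), a ratio of 2.35 (1.83 to 3.04) and Elovl4 at 24.02 CPM (WT) and 40.7 CPM (KO), a ratio of 1.696 (1.49 to 1.93). Elovl6 was at 11.9 CPM (WT) and 19.9 CPM (KO), a ratio of 1.66 (1.38 to 2.01) and Far2 at 2.87 CPM (WT) and 6.898 CPM (KO), a ratio of 2.401 (1.68 to 3.49). Scd1, Elovl3, Elovl4, Elovl6 and Far2 were under 20% of their sebaceous level, so free RNA could supply them. The lowest Scd1 level among the classes with at least 200000 UMIs was that of vascular endothelial cells, at 23.3 CPM (WT) and 31.1 CPM (KO), and the part of free RNA was not tested. Hsd17b7 was not under that limit in KO, where it was higher, at 19.3 CPM (WT) and 31.6 CPM (KO), a ratio of 1.63 (1.41 to 1.89), and Elovl7, itself under 20% of its suprabasal level, was lower, at 10.9 CPM (WT) and 6.003 CPM (KO), a ratio of 0.551 (0.423 to 0.713). The medians were -0.03 for cholesterol and 0.18 for fatty acid genes, against 0.11 over all genes. Cluster 13 held 55.1% of WT and 0.765% of KO fibroblasts, and cluster 14 held 1.04% and 29.5%.

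Of 34 measured genes in monocytes and macrophages, 5 were lower past 1.5-fold, all of them cholesterol genes, against 12.2% of all genes, and 5 were higher, against 13.9%. Both counts over the 34 genes are near the background shares. Pmvk had the most UMIs of the 5, at 96.1 CPM (WT) and 55.5 CPM (KO), a ratio of 0.578 (0.506 to 0.658) and stood just above 20% of its Langerhans level in WT, where it was higher. Mvk was at 7.304 CPM (WT) and 3.34 CPM (KO), a ratio of 0.457 (0.259 to 0.7704), Mvd at 5.23 CPM (WT) and 2.81 CPM (KO), a ratio of 0.537 (0.285 to 0.963), Sqle at 13.6 CPM (WT) and 6.86 CPM (KO), a ratio of 0.503 (0.342 to 0.726) and Nsdhl at 4.25 CPM (WT) and 2.64 CPM (KO), a ratio of 0.6202 (0.318 to 1.15), each under 20% of another class in WT and the last with an interval that spans 1. The cholesterol median was -0.37 and the fatty acid median 0.33, against 0.04 over all genes. Scd1 was at 31.7 CPM (WT) and 49.04 CPM (KO), a ratio of 1.55 (1.31 to 1.83), Elovl3 at 3.71 CPM (WT) and 9.67 CPM (KO), a ratio of 2.61 (1.67 to 4.13) and Elovl4 at 19.6 CPM (WT) and 38.1 CPM (KO), a ratio of 1.94 (1.59 to 2.38). Elovl6 was at 5.56 CPM (WT) and 16.2 CPM (KO), a ratio of 2.91 (2.04 to 4.18) and Far2 at 2.29 CPM (WT) and 5.45 CPM (KO), a ratio of 2.38 (1.32 to 4.36). Those 5 were under 20% of their sebaceous level here. Acly, Elovl1 and Elovl5 had ratios of 1.02 (0.882 to 1.18), 0.986 (0.856 to 1.13) and 1.05 (0.8398 to 1.303). Cluster 8, led by genes that include Chil3, Lyz2, Ccl3 and Il1b, held 13.7% of WT and 0.261% of KO cells of this class. Within clusters 0 and 1 the cholesterol medians were -0.51 and -0.89 and the fatty acid medians 0.60 and 0.14.

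**Figure D5:**
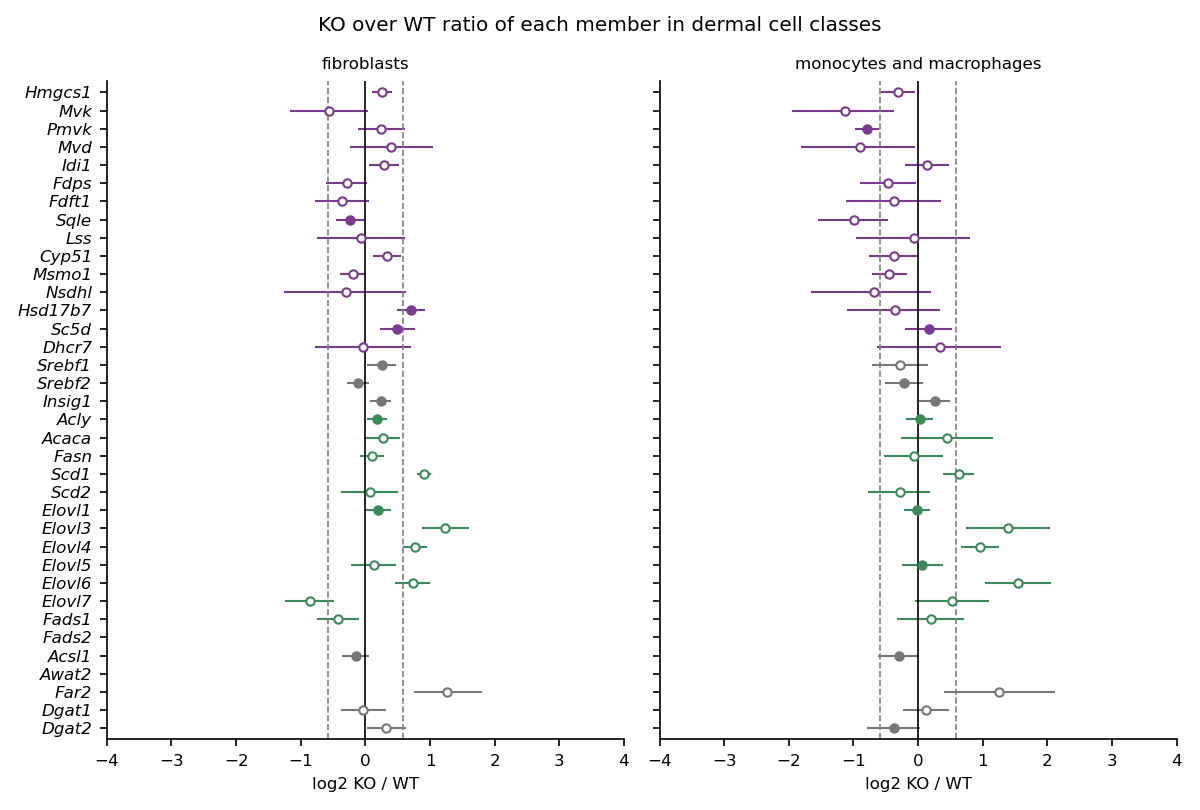
Log2 ratio of KO over WT for the 36 genes in fibroblasts (left) and in monocytes and macrophages (right), coloured as cholesterol (purple), fatty acid (green) and other (grey), with exact 95% intervals of counting error and dashed lines at 1.5-fold; open points are under 20% of another class in the library where the gene was higher, and genes under 20 UMIs have no point. Scd1, Elovl3, Elovl4, Elovl6 and Far2 lie right of 1.5-fold in both panels and are all open points.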

How the data were processed

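The 2 libraries were analysed from the UMI counts that the authors deposited as filtered gene by barcode matrices. Reads were processed with Cell Ranger 3.0.2 on mm10 and with Seurat 3.0, per the submitters' processing notes, and the matrix header names software 3.1.0. The matrices held 147260653 UMIs in WT and 123839924 in KO. A cell was kept if it had 200 genes or more and no more than 10% of its UMIs from mitochondrial genes. The 36 genes and all lists were chosen with earlier results of these data known.

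A marker counted as on in a cell with at least 1 UMI and a level above the mean over kept cells. A cell joined the lineage with the highest share of markers on, given at least 3 on, a share of at least 40% and a lead of 15 points, and a keratinocyte was called cycling with 4 of 9 cycling markers on. This scoring was set after the data were seen. Doublets were not removed, since Scrublet called 0 WT and 67 KO cells (0.655%), which is too few to have worked. Clusters came from Leiden at resolution 1 on 2000 variable genes without the 36 genes, 30 components and 15 neighbours (scanpy 1.11.5).

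UMIs were summed per class and library and divided by the class total (CPM). Ratios of KO over WT have exact 95% intervals conditional on the summed count (scipy 1.17.1), which cover counting error only. Genes with at least 20 UMIs over both libraries counted as measured, and 8 classes with at least 200 cells in each library were compared, 1 of them the keratinocytes outside the named subclasses. A gene in a class could be free RNA if, in the library where it was higher there, its level was under 20% of that in another class with at least 20 cells; for keratinocyte classes only classes outside the keratinocytes were used. Named were the genes past 1.5-fold in each compared class, the 2 highest classes of each gene, genes of 2 further lists past 1.5-fold in keratinocytes and the 10 genes most like each branch sum. For likeness, log2 values had 10 CPM added. The ratio code was checked on simulated counts. Where the rule named a withheld item, it is not reported here. No gene lengths, ambient RNA profiles or other samples were used.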

Additional observations from a re-analysis of the deposited data

Results flagged for a closer look

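The genes here were past 1.5-fold in opposite directions in different cell classes of the same 2 libraries. The difference between classes was not tested, because there is 1 library per genotype. Idi1 had a ratio of KO over WT of 0.667 in keratinocytes and 1.55 in sebaceous gland cells. Nsdhl was at 0.581 in keratinocytes and 0.620 in monocytes and macrophages, and at 1.52 in sebaceous gland cells, and its interval in monocytes and macrophages ran from 0.318 to 1.15. Elovl7 was at 2.08 in sebaceous gland cells and 0.551 in fibroblasts. The sebaceous values did not hold throughout. With at most 5% mitochondrial UMIs the sebaceous log2 ratio was -0.42 for Idi1 and -0.052 for Nsdhl. Among the sebaceous cells of cluster 11 the log2 ratio was -0.77 for Idi1, -0.73 for Nsdhl and -0.27 for Elovl7. Among those of cluster 25, which held 11.9% of the WT and 25.5% of the KO sebaceous class, the ratio was 1.23 for Idi1, 1.05 for Nsdhl and 2.20 for Elovl7.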

How the results depend on the processing

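Of 24 class values (medians and counts past 1.5-fold in 8 classes), none moved with a median-of-ratios scale, with cells of at least 2000 UMIs or without cluster 38. The choices named as single or mixed clusters were made after seeing the data, and the cause of each move was not tested. No paired analysis was possible because there is 1 library per genotype, and leaving out a library was not possible for that reason.

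In keratinocytes the cholesterol median was -0.17 with each cell weighted equally, -0.40 with a stricter gate, -0.46 with whole clusters, -0.24 without genes that could be free RNA and -0.69 in mixed clusters, to which each library gave at least 20% of the cells. The fatty acid median was -0.30 with the stricter gate, -0.0015 with the 5 further genes and -0.30 in the mixed clusters. Genes past 1.5-fold numbered 1 without possible free RNA and 13 in the mixed clusters. In basal cells the fatty acid median was -0.51 with equal weights and 0.48 with whole clusters, and 3 genes passed without possible free RNA. In suprabasal cells the cholesterol median was -0.14 with equal weights, and 6 genes passed with the stricter gate and 6 without possible free RNA. In cycling cells the cholesterol median was 0.29 in the mixed clusters, which leave out clusters 9, 10 and 11 and hold few of these cells. The fatty acid median of cycling cells was -0.45 with the stricter gate, and 5 genes passed without possible free RNA and 9 in the mixed clusters. In keratinocytes outside the named subclasses the cholesterol median was -0.15 with equal weights and -0.33 without possible free RNA, the fatty acid median was -0.14 with equal weights, and 6 genes passed without possible free RNA. In fibroblasts 1 gene passed without possible free RNA. In monocytes and macrophages 5 passed with at least 100 UMIs and 1 without possible free RNA.

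In sebaceous cells the cholesterol median was 0.32 with equal weights, -0.42 with at most 5% mitochondrial UMIs, 0.86 with whole clusters, -0.77 in cluster 11 and -0.039 in cluster 25. The fatty acid median was 0.71 with no low-count filter, 0.67 with equal weights, -0.03 with the mitochondrial limit, 0.73 without the highest doublet scores, 1.22 with whole clusters, 0.93 without possible free RNA, 0.63 with the 5 further genes, 0.69 in the mixed clusters, -0.45 in cluster 11 and 0.21 in cluster 25. Genes past 1.5-fold numbered 12 with the mitochondrial limit and 5 in cluster 25. Among all these alternatives, the share of all genes past that fold was counted only for keratinocytes of the mixed clusters.

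The genes past 1.5-fold gave 94 values, each of 1 gene in 1 class, with 1061 alternative values. Of the alternatives, 32 had the other sign where the main interval left out a ratio of 1. With whole clusters, basal Sqle was at 0.064, Elovl5 at 0.69, Elovl7 at -0.91 and Fads1 at 0.42. With equal weights, suprabasal Nsdhl was at 0.13 and Scd1 of the keratinocytes outside the named subclasses at 0.38. In the mixed clusters, cycling Mvk was at 0.13, Fdps at 0.040, Sqle at 0.34, Nsdhl at 0.43, Sc5d at 0.53 and Scd1 at 0.024, and with the stricter gate cycling Elovl3 was at -1.50. With the mitochondrial limit, sebaceous Idi1 was at -0.42, Nsdhl at -0.052, Acly at -0.10, Fasn at -0.03 and Scd1 at -0.084. In cluster 11, Idi1 was at -0.77, Cyp51 at -0.28, Msmo1 at -0.23, Nsdhl at -0.73, Acly at -0.17, Fasn at -0.45, Scd1 at -0.69, Elovl3 at -0.49, Elovl4 at -1.26, Elovl7 at -0.27, Far2 at -0.84 and Dgat1 at -0.78. In cluster 25, Elovl1 was at 0.13 and Far2 at -0.071. These are log2 ratios. Depth limits the scarce genes most, with Fads1 at 1 UMI in KO cycling cells.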

Other observations

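A cluster of 137 KO cells had no WT cell. It had a median depth of 2547 UMIs and no name from the markers, and its leading genes included Elovl6, Scd1, Cidea, Fmod, Mgll, Cers4, Coch, Idi1 and Tagln. Cidea is a lipid droplet protein, Fmod an extracellular matrix proteoglycan and Tagln a smooth muscle protein, so its leading genes belong to unlike cell types. Of its cells 70 were gated as keratinocytes, 2.84% of the KO class, and 19 as sebaceous gland cells, 6.55% of the KO class, and they enter the KO values of those classes. Without them no class median or count past 1.5-fold moved beyond its counting interval or by over 1.5 times, while the log2 ratio of Elovl6 in keratinocytes fell short of 1.5-fold, at 0.49.

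Over all kept cells of each library, whatever their class, the cholesterol genes summed to 797 CPM (WT) and 799 CPM (KO), and the fatty acid genes to 709 CPM (WT) and 1127 CPM (KO). The 2 sums thus differed in ratio without any gating, at 1.00 and 1.59. They include the sebaceous gland cells, whose much higher fatty acid sums are given above for each library. Those cells were 1.87% of kept cells in WT and 2.83% in KO, with 8412678 and 8540488 UMIs. Their part in the whole-library fatty acid difference was not tested. Fewer cells of a type and less RNA per cell cannot be told apart in these whole-library sums.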
